A study of Mus musculus with 2 samples.

Results

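Microbe-sensing receptors were followed gene by gene through single-cell RNA sequencing of mouse periodontal tissue. The group was set by a list of 10 symbols chosen for their known role: *Tlr2*, *Tlr4*, *Cd14*, *Myd88*, *Fpr1*, *Fpr2*, *Clec4d*, *Clec4e*, *Clec7a* and *Trem1*. Of these, 9 had a row among the 31053 genes of the count tables. *Clec7a*, the receptor Dectin-1, had none under its symbol or its identifier and is not analysed here; the GRCm38 annotation lists it on chromosome 6 (chr6:129461591-129472779, minus strand) with the type polymorphic_pseudogene. *Myd88* is an adaptor and *Cd14* a co-receptor, so both are counted here with the receptors they serve.

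The data hold 1 library from mice with ligature-induced periodontitis (LIP), in which a thread tied around a molar gathers oral bacteria. They also hold 1 library from control mice whose label gives no treatment, and the 2 libraries are compared here. Both came from wild-type (WT) C57BL/6 animals 8 weeks old, each pooled live cells of 5 mice freed by digestion from gingival tissue and from the surface of the alveolar bone, and the LIP tissue was taken 7 days after ligature placement. The libraries were made with 10x Genomics 3′ chemistry, in which a molecular identifier (UMI) marks each captured transcript. After filtering, 936 of 1212 LIP barcodes and 883 of 1169 control barcodes were kept, with 10560109 and 13407122 UMIs and medians of 5595 and 10845 UMIs per cell. The libraries shared 2 barcodes, 1 of them kept. With 1 library per condition no test was possible and differences between mice cannot be read. Every interval below is an exact 95% interval that covers counting error only, and "higher" or "lower" compares these libraries.

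Receptors of this kind recognise microbial structures directly. Toll-like receptors at the membrane bind lipoproteins or lipopolysaccharide and signal through the adaptor MyD88, formyl peptide receptors steer phagocytes towards bacterial peptides, and C-type lectins such as Mincle and MCL bind microbial glycolipids and signal through the Fc receptor gamma chain. TREM-1 amplifies these signals, and all of them are best known from neutrophils and macrophages.

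Cells were grouped without the receptor genes and their pathway among the features that drove clustering. The clusters gave 12 classes named from marker genes, each written with "-like" since the name rests on transcripts alone, and 9 classes had at least 20 cells in both libraries. Neutrophil-like cells numbered 360 in the LIP and 51 in the control library, and macrophage-like cells 90 and 67. All 12 neutrophil markers were found in the neutrophil-like cells, where they summed to 258456 CPM (UMIs of a gene per 1000000 UMIs of the group) in LIP and 383358 CPM in control, against 1040 and 5127 CPM in all other cells. All 13 macrophage markers were found in the macrophage-like cells, at 15815 and 11767 CPM against 1096 and 584 CPM elsewhere.

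In both libraries the receptor transcripts lay mostly in these 2 myeloid classes. The 9 genes had 25886 UMIs in the LIP library, of which neutrophil-like cells held 73.4% (72.8–73.9) and macrophage-like cells 23.5% (23.0–24.1). In the control library they had 2716 UMIs, of which the same classes held 62.1% (60.2–63.9) and 18.1% (16.7–19.6). Of the UMIs of all genes, neutrophil-like cells held 15.7% in LIP and 3.22% in control, and macrophage-like cells 14.8% and 5.43%. Since the libraries held different numbers of myeloid cells, the levels below are given within a class.

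The genes fell into a myeloid group and a shared pair. *Fpr1*, *Fpr2*, *Clec4d*, *Clec4e* and *Trem1* had between 98.0% and 99.6% of their LIP UMIs in neutrophil-like and macrophage-like cells, and between 93.1% and 99.1% of their control UMIs. For *Tlr2* the shares were 94.6% and 80.1%, and for *Cd14* 98.0% and 86.8%. *Tlr4* had 51.3% (43.0–59.6) of its 150 LIP UMIs and 23.0% (14.6–33.2) of its 87 control UMIs in the myeloid classes. *Myd88* had 66.9% of 676 UMIs and 25.5% of 345 UMIs there, so for this pair most control transcripts came from other cells.

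**Figure D1:**
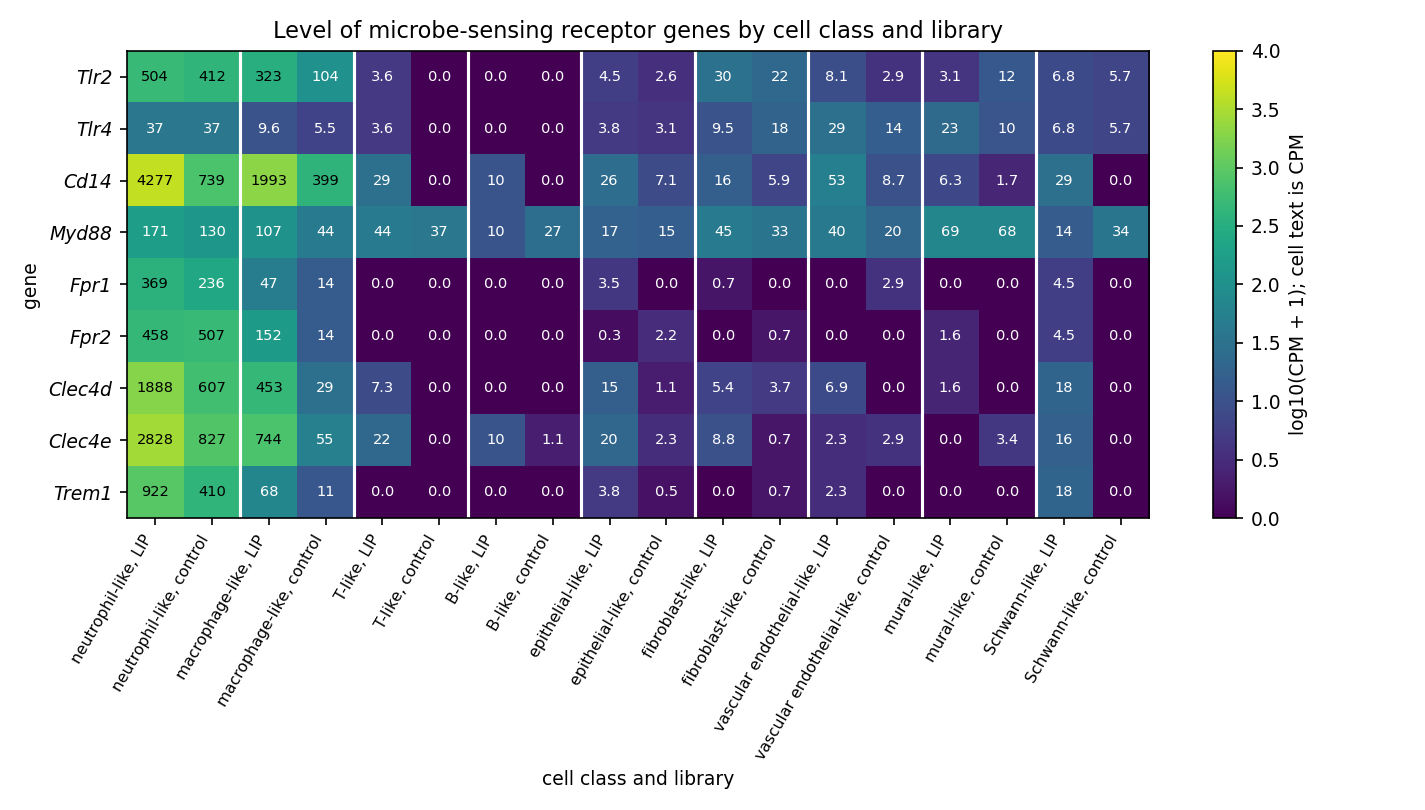
Level of 9 receptor genes (rows) in the 9 classes with at least 20 cells in both libraries (columns, LIP and control side by side), with colour as log10(CPM + 1) and CPM printed in each field. The neutrophil-like and macrophage-like columns are the brightest for most genes, whereas *Myd88* and *Tlr4* also show in mural-like, endothelial-like and fibroblast-like cells.

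The gene pairs that follow lie side by side in the genome. *Clec4d* (ENSMUSG00000030144, encoding MCL) spans chr6:123262111-123275265 on the plus strand and *Clec4e* (ENSMUSG00000030142, encoding Mincle) spans chr6:123281789-123289870 on the minus strand, so that their 3′ ends face each other across 6.523 kb in GRCm38. *Fpr1* (ENSMUSG00000045551; chr17:17876471-17883940, minus strand) and *Fpr2* (ENSMUSG00000052270; chr17:17887824-17893952, plus strand) are 3.883 kb apart. The formyl peptide receptors belong to a multigene family, and reads that match several members may not have been counted, which leaves their levels uncertain to that extent. *Trem1* (ENSMUSG00000042265; chr17:48232768-48246924, plus strand), *Tlr2* (ENSMUSG00000027995; chr3:83836272-83841767, minus strand), *Tlr4* (ENSMUSG00000039005; chr4:66827584-66930284, plus strand) and *Myd88* (ENSMUSG00000032508; chr9:119335934-119341411, minus strand) are not part of these pairs. All 8 are annotated as protein_coding.

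RefSeq promoter windows of GRCm38.p6, from 250 bases before to 50 after a gene's start, were found for 7 of the 10 listed genes. *Cd14* and *Tlr4* had no window, and *Clec7a* was left out for want of counts. Those of *Clec4d* (chr6:123261857-123262156, plus strand), *Clec4e* (chr6:123289822-123290121, minus strand), *Trem1* (chr17:48232489-48232788, plus strand) and *Tlr2* (chr3:83841559-83841858, minus strand) are shown because the first 3 genes moved together in the neutrophil-like cells and *Tlr2* moved apart from them. Capitals mark GAGGAA, the core that the myeloid factor PU.1 binds, on either strand in the first 3 windows, and the NF-kappaB motif (GGG, then 5 bases of any kind, then CC) in that of *Tlr2*.
Clec4d: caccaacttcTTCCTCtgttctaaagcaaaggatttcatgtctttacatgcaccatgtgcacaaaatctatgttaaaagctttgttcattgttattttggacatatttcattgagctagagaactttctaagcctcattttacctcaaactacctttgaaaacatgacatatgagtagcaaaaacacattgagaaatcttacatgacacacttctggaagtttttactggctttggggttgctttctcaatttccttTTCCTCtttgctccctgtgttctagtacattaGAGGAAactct
Clec4e: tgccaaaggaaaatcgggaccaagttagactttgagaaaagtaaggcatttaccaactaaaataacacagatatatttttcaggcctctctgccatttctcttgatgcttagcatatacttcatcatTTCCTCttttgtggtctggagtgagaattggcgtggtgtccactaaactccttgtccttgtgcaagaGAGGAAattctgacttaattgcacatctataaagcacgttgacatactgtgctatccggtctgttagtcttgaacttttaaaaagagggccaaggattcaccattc
Trem1: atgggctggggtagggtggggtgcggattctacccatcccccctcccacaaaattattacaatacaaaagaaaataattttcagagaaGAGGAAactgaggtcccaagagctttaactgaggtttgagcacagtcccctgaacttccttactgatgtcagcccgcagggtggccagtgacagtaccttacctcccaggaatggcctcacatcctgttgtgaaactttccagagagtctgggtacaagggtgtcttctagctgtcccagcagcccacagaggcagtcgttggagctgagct
Tlr2: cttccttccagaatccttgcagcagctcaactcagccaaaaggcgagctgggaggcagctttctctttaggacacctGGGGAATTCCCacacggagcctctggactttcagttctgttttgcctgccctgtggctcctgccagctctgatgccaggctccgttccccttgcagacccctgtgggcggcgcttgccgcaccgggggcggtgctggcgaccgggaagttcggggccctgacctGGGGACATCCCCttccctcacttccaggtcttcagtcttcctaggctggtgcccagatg
GAGGAA was found 3 times in the *Clec4d* window, 2 times in that of *Clec4e* and once in those of *Trem1* and *Fpr2*, that is in 4 of 7 windows against 28.3% of 32851 promoter windows of the same length. The NF-kappaB motif was found in the *Tlr2* window only among the 7, with 7 overlapping matches counted over both strands, against 50.8% of all windows. The C/EBP motif TTNNGNAA was in 6 of 7 windows (40.7% of all), TATAAA in 4 of 7 (13.6%, in *Clec4e*, *Myd88*, *Fpr1* and *Fpr2*) and the AP-1 motif TGANTCA in 0 of 7 (7.81%). A match describes these letters and no binding.

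The first comparison asked how the receptor genes of neutrophil-like cells differed between the inflamed and the control tissue. *Cd14*, *Clec4e*, *Clec4d* and *Trem1* were at least 2-fold higher in the LIP library, whereas *Tlr2*, *Tlr4*, *Myd88*, *Fpr1* and *Fpr2* were not. Of the 3180 genes with at least 50 UMIs in this class, 12.0% were 2-fold or more higher in LIP and 3.11% as far lower, beside 4 and 0 of the 9 receptor genes. The receptor genes had a median log2 ratio of 0.64, against 0.05 over all 3180 genes. With each cell weighted equally, as a mean of per-cell CPM, the log2 ratio of *Trem1* was 0.65, under 2-fold, and that of *Clec4d* fell from 1.64 to 1.05. The libraries drew this class from different cells: a sub-cluster led by *Acod1* made up 73.9% (69.0–78.4) of the neutrophil-like cells in LIP and 47.1% (32.9–61.5) in control, and a sub-cluster led by *Ltf*, which encodes the granule protein lactoferrin, made up 15.8% and 52.9%. Another, led by *Wfdc17*, held 37 LIP cells and 0 control cells at a median of 786 UMIs. These shares count cells, whereas the class levels sum UMIs, so deeper cells weighed more in the levels than their shares show. The *Ltf*-led cells had medians of 9796 UMIs in LIP and 10845 in control, and the *Acod1*-led cells 3558 and 3516. The share of the class UMIs held by each sub-cluster is not given here.

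Among the Toll-like receptors and their partners, *Cd14* stood out. *Cd14* (ENSMUSG00000051439), the co-receptor that hands lipopolysaccharide to TLR4, had 7092 UMIs in LIP neutrophil-like cells, 4277 CPM, and 319 UMIs in control ones, 739 CPM (660–824). This made it 5.79-fold higher in LIP (5.18–6.50), above 98.6% of the genes compared. *Tlr2*, the receptor for bacterial lipoproteins, was at 504 and 412 CPM, a log2 ratio of 0.29 (0.06 to 0.53). *Tlr4*, the lipopolysaccharide receptor itself, was at 37.4 CPM (62 UMIs) and 37.0 CPM (16 UMIs), with a log2 ratio of 0.01 whose interval ran from -0.80 to 0.91. The co-receptor and the receptor thus differed in how far they moved, although the interval of *Tlr4* leaves room for a change of up to 1.87-fold in one direction. *Myd88*, which carries the signal of both receptors into the cell, was at 171 and 130 CPM, a log2 ratio of 0.40 (-0.02 to 0.84).

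The C-type lectin pair and *Trem1* were higher as well. *Clec4e* was at 2828 CPM (2747–2910) in LIP and 827 CPM (743–917) in control neutrophil-like cells, 3.42-fold higher (3.07–3.82). *Clec4d* was at 1888 and 607 CPM, 3.11-fold higher (2.74–3.55). *Trem1*, the receptor that boosts the Toll-like signal in neutrophils, was at 922 and 410 CPM, 2.25-fold higher (1.92–2.64). These 3 genes lay above 95.8%, 94.8% and 90.3% of the genes compared, in the order given.

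Over the whole class the formyl peptide receptors had smaller ratios than these genes. *Fpr1*, the high-affinity receptor for bacterial formyl peptides, was at 369 CPM in LIP and 236 CPM in control neutrophil-like cells, a log2 ratio of 0.64 (0.34 to 0.96). *Fpr2*, which also binds host peptides and lipids, was at 458 and 507 CPM, a log2 ratio of -0.15 (-0.36 to 0.08). The interval of *Fpr2* held 0, and that of *Fpr1* did not reach 2-fold.

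**Figure D2:**
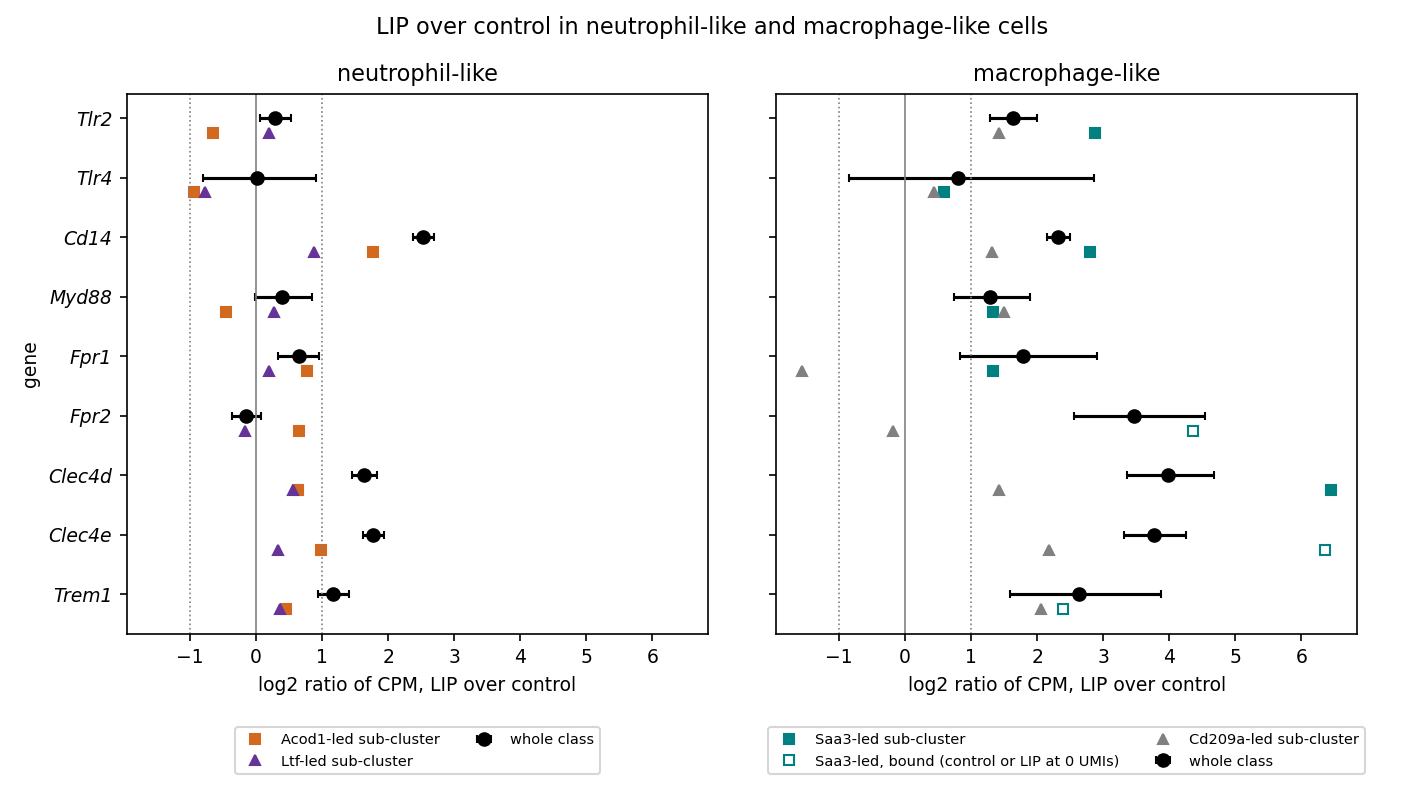
Log2 ratio of CPM, LIP over control, for 9 receptor genes (rows) in neutrophil-like cells (left) and macrophage-like cells (right), with black points for the whole class and exact 95% counting intervals, coloured marks for sub-clusters, open squares for bounds where the control had 0 UMIs, and dotted lines at 2-fold. *Cd14*, *Clec4d*, *Clec4e* and *Trem1* lie beyond the right dotted line in neutrophil-like cells, and all genes but *Tlr4* have a lower limit above 0 in macrophage-like cells.

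Within the sub-clusters the differences of *Cd14*, *Clec4e*, *Clec4d* and *Trem1* were smaller than over the whole class, and that of *Cd14* was the largest of the 9 genes in both. In the *Acod1*-led cells (266 in LIP, 24 in control) *Cd14* was at 6980 and 2040 CPM, a log2 ratio of 1.77 (1.56 to 1.99), and in the *Ltf*-led cells (57 and 27) at 733 and 397 CPM, a log2 ratio of 0.88 (0.61 to 1.17). *Clec4e* had log2 ratios of 0.99 (0.78 to 1.20) and 0.34 (0.06 to 0.62), *Clec4d* of 0.63 (0.41 to 0.86) and 0.56 (0.20 to 0.92), and *Trem1* of 0.46 (0.15 to 0.79) and 0.36 (-0.00 to 0.74). *Cd14* was thus past 2-fold within the *Acod1*-led cells but not within the *Ltf*-led cells. *Clec4e*, *Clec4d* and *Trem1*, past it over the whole class, were under it in both. *Tlr2* turned its direction: in *Acod1*-led cells it was at 692 CPM in LIP and 1081 CPM in control, a log2 ratio of -0.64 (-0.95 to -0.32), where the median of all genes was -0.18. In the *Ltf*-led cells *Tlr2* was at 271 and 237 CPM, a log2 ratio of 0.19 (-0.19 to 0.59). *Fpr2* was at 438 and 279 CPM in the *Acod1*-led cells, a log2 ratio of 0.65 (0.07 to 1.30), and at 508 and 567 CPM in the *Ltf*-led cells, -0.16 (-0.42 to 0.10). *Fpr1* had log2 ratios of 0.78 (0.18 to 1.44) and 0.20 (-0.19 to 0.60), so in the *Acod1*-led cells both formyl peptide receptors had ratios like those of *Clec4d* and *Trem1*, with overlapping intervals.

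The sub-clusters themselves differed in these genes in both libraries. As a description, since cells of 1 library share their source, *Acod1*-led over *Ltf*-led cells gave log2 ratios in LIP of 3.25 (3.12 to 3.39) for *Cd14*, 3.02 for *Clec4d*, 3.00 for *Clec4e*, 2.51 for *Tlr4*, 2.08 for *Trem1*, 1.36 for *Tlr2* and 1.10 for *Myd88*. The control values were 2.36, 2.94, 2.35, 2.67, 1.98, 2.19 and 1.83 for the same genes. *Fpr1* had 0.81 (0.55 to 1.07) in LIP and 0.23 (-0.49 to 0.91) in control. By CPM *Fpr2* was the exception, with log2 ratios of -0.21 in LIP and -1.02 (-1.69 to -0.42) in control. The median over all genes compared was 0.24 in LIP and 0.55 in control. CPM is a share of UMIs, and the *Ltf*-led cells were deeper in both libraries. The order by UMIs per cell can therefore differ and is not given here. The 37 *Wfdc17*-led cells of the LIP library had 32 *Cd14*, 33 *Clec4d*, 69 *Clec4e* and 8 *Trem1* UMIs in all, and 1 *Tlr2* and 0 *Tlr4* UMIs. In these shallow cells the limit of 3 UMIs was 78.7 CPM, above the 58.5 CPM of *Tlr4* in LIP *Acod1*-led cells. Nothing is therefore read from the 0 of *Tlr4*. The *Wfdc17*-led cells were split from the same cluster as the macrophage-like cells.

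**Figure D3:**
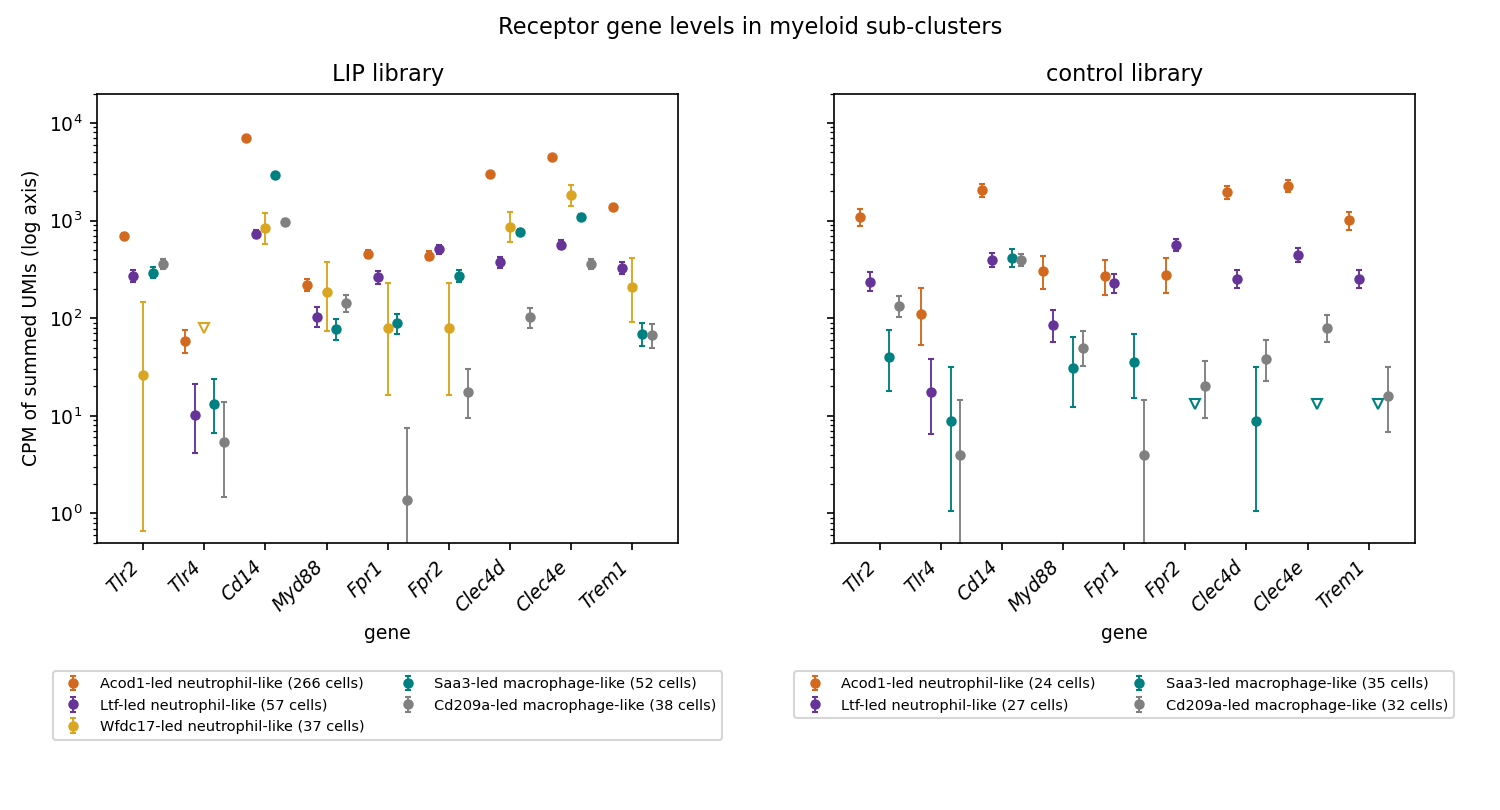
CPM of 9 receptor genes on a log axis in the sub-clusters of neutrophil-like and macrophage-like cells, LIP library left and control library right, with exact 95% Poisson intervals and open triangles for the limit of 3 UMIs where none was found. The *Acod1*-led cells have the highest points for *Cd14*, *Clec4d*, *Clec4e* and *Trem1* in both libraries, whereas *Fpr2* is highest in the *Ltf*-led cells.

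The second comparison concerned macrophage-like cells, and here the receptor genes were higher in LIP almost throughout. All 8 receptor genes with at least 50 UMIs were 2-fold or more higher in the LIP library, where 7.85% of 5430 genes were, and 0 were as far lower, where 7.16% of all genes were. The minimum was set on the sum of both libraries, and *Trem1*, *Fpr1*, *Fpr2*, *Clec4d*, *Myd88* and *Clec4e*, with 8, 10, 10, 21, 32 and 40 control UMIs, passed it only through the library where they were high, so nothing is read from this count beyond the genes' own values. *Tlr4* had too few UMIs to be counted, 15 in LIP (9.59 CPM) and 4 in control (5.49 CPM).

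Over the whole class the C-type lectin pair differed most among these genes. *Clec4d* had 709 UMIs in 90 LIP cells, 453 CPM (421–488), and 21 UMIs in 67 control cells, 28.8 CPM (17.8–44.1), a 15.7-fold difference (10.2–25.6). *Clec4e* had 1164 and 40 UMIs, 744 and 54.9 CPM, and was 13.6-fold higher (9.90–19.1). Both lay above 99.2% or more of the 5430 genes. *Fpr2* had 237 and 10 UMIs, 152 and 13.7 CPM, and was 11.0-fold higher (5.90–23.3), unlike in the neutrophil-like cells. *Fpr1* had 74 and 10 UMIs, 47.3 and 13.7 CPM, and was 3.45-fold higher (1.77–7.49). Of its 10 control UMIs, 8 lay in 1 cell, so the control level rests largely on that cell.

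*Cd14* was at 1993 CPM (1924–2065) in LIP and 399 CPM (355–448) in control macrophage-like cells, 4.99-fold higher (4.42–5.65). *Tlr2* was at 323 and 104 CPM, 3.1-fold higher (2.43–3.99). *Myd88* was at 107 and 43.9 CPM, 2.45-fold higher (1.67–3.69), but fell short of 2-fold at a resolution of 0.3 (log2 ratio 0.995) and at a mitochondrial limit of 20% (0.97). *Trem1* was at 67.8 and 11.0 CPM, 6.17-fold higher (3.02–14.7), on 106 and 8 UMIs. The LIP values exceeded the control values for each of these genes by more than counting error.

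Neutrophil transcripts were also present in the macrophage-like cells. Neutrophil carrier genes (*Retnlg*, *Csf3r*, *Cxcr2*, *Il1r2*, *Mmp8* and *Ly6g*) stood there at 1.89% of their neutrophil-like level in LIP and 1.33% in control. A like share of the neutrophil-like receptor level would be 80.7 CPM *Cd14*, 35.6 CPM *Clec4d* and 53.4 CPM *Clec4e* in LIP. For *Fpr2* and *Trem1* it would be a larger part of the observed level in control than in LIP. The carried-over levels of the other genes and of the control library are not given here. In the 29 LIP and 39 control macrophage-like cells without any carrier UMI, *Cd14* was at 1360 and 302 CPM, *Tlr2* at 174 and 43.7 CPM, *Clec4d* at 665 and 3.64 CPM (248 and 1 UMIs) and *Clec4e* at 588 and 0 CPM (219 and 0 UMIs). In these cells *Clec4e* was at least 53.8-fold higher in LIP, with the control set to 3 counts over the group, *Tlr2* was 3.99-fold higher, and *Cd14* had a log2 ratio of 2.17 (1.83 to 2.52). *Fpr2* had 27 and 0 UMIs and *Trem1* 10 and 0, and they were at least 6.63-fold and 2.45-fold higher. *Fpr1* was at least 4.66-fold and *Myd88* 2.95-fold higher. These 4 genes fell under the minimum of 50 UMIs in the cells without carriers and were no longer counted, while the 8 genes stayed beyond 2-fold. Leaving out cells with a carrier UMI favours shallow cells, and the depth and sub-cluster mix of the cells that remained are not given here.

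The macrophage-like cells fell into a *Saa3*-led and a *Cd209a*-led sub-cluster, and the difference in the C-type lectins was present in both. The *Cd209a*-led cells were led by antigen presentation genes (*H2-Eb1*, *H2-Ab1*, *H2-Aa* and *Cd74*), and 4 markers of the dendritic list were found in them beside 8 of the macrophage list, so that their class name is less certain. In the *Saa3*-led cells (52 in LIP, 35 in control) *Clec4d* had 634 and 2 UMIs, an 87.1-fold ratio (24.0–721), and *Clec4e* had 898 and 0 UMIs, at least 82.3-fold higher. *Fpr2*, with 224 and 0 UMIs, was at least 20.5-fold higher, and *Trem1*, with 57 and 0, at least 5.22-fold. The control cells of this sub-cluster were shallow, with a median of 1650 UMIs against 14149.5 in LIP, and 18 of the 35 had fewer than 2000 UMIs. In the *Cd209a*-led cells (38 and 32), whose medians were 18525 and 15228.5 UMIs, *Clec4e* had a log2 ratio of 2.18 (1.70 to 2.70), *Trem1* 2.06 (0.97 to 3.35), *Myd88* 1.5 (0.86 to 2.19), *Clec4d* 1.43 (0.69 to 2.24), *Tlr2* 1.42 (1.03 to 1.83) and *Cd14* 1.32 (1.09 to 1.55). *Clec4d* thus ranked below *Trem1* and *Myd88* in these cells, unlike over the whole class, although the intervals overlapped. The formyl peptide receptors had few UMIs in these cells, 13 and 10 of *Fpr2* and 1 and 2 of *Fpr1*. The 10 control *Fpr2* UMIs lay in 2 cells, with 9 in 1 of them, and the 13 LIP UMIs lay in 6 cells. Their log2 ratios were -0.18 (-1.48 to 1.17) for *Fpr2* and -1.55 (-7.44 to 2.71) for *Fpr1*, so no direction is read for either. Most *Fpr1* and *Fpr2* UMIs of the LIP macrophage-like cells lay in the *Saa3*-led cells, 73 of 74 and 224 of 237.

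Set against each other within a library, neutrophil-like cells had the higher CPM of all 9 receptor genes. CPM is a share of the UMIs of a class, and the macrophage-like cells were deeper. Their medians were 15263 UMIs in LIP and 11638 in control, against 3726.5 and 6494 in neutrophil-like cells. The order by UMIs per cell can therefore differ and is not given here. In LIP, 7 of 9 genes were 2-fold or more higher in neutrophil-like than in macrophage-like cells, where 13.0% of 5466 genes were. None were as far lower, where 46.4% were. *Tlr4*, among the 7, had 15 UMIs in macrophage-like cells and passed the minimum through its 62 in neutrophil-like cells. In control, 7 of the 8 counted were higher (15.1% of 3059 genes) and 0 lower (46.3%), but 6 of the 8 had fewer than 50 UMIs in macrophage-like cells and passed the minimum through the neutrophil-like cells. *Trem1* had log2 ratios of 3.77 (3.48 to 4.06) in LIP and 5.22 (4.21 to 6.46) in control, and *Fpr1* 2.96 and 4.10. *Clec4d* had 2.06 (1.94 to 2.18) and 4.40 (3.75 to 5.11), *Clec4e* 1.93 and 3.91, and *Fpr2* 1.60 (1.38 to 1.81) and 5.21 (4.30 to 6.29). *Cd14* had 1.10 (1.04 to 1.16) and 0.89 (0.65 to 1.12), and *Tlr2* 0.64 (0.48 to 0.80) and 1.98 (1.59 to 2.39). For *Trem1*, *Clec4d*, *Clec4e*, *Fpr2* and *Tlr2* the gap between the classes was narrower in LIP, and the intervals of the libraries did not overlap. The median of all genes was -0.85 in both libraries.

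Shares of cells with a transcript were compared at equal depth, after 1000 UMIs had been drawn from each cell. This kept 323 LIP and 51 control neutrophil-like cells and left out 37 and 0. *Cd14* was found in 78.0% (73.1–82.4) of the LIP cells and 49.0% (34.8–63.4) of the control cells, against 85.8% and 70.6% before thinning. *Clec4d* was found in 81.4% (76.7–85.5) and 56.9% (42.2–70.7), *Clec4e* in 80.5% and 70.6%, *Trem1* in 58.2% and 43.1% and *Tlr2* in 41.2% and 35.3%. *Fpr1* was in 28.2% and 31.4% and *Fpr2* in 31.3% and 31.4%, and the intervals of the libraries overlapped for all of these genes but *Cd14* and *Clec4d*. In B-like cells, the class used as a reference without *Cd14*, this gene was found in 0 of 151 control cells and 1 of 20 LIP cells before thinning, at median depths of 4764 and 4577.5 UMIs against 6494 and 3726.5 in neutrophil-like cells. Taken as 3 cells of the total, 0 of 151 allows *Cd14* UMIs in at most 1.99% of B-like cells.

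In macrophage-like cells at the same depth (85 LIP and 59 control, with 5 and 8 left out), *Cd14* was found in 55.3% (44.1–66.1) and 13.6% (6.04–24.98) of cells. *Clec4e* was in 38.8% (28.4–50.01) and 1.69% (0.0429–9.09), *Clec4d* in 31.8% and 6.78%, *Tlr2* in 29.4% and 6.78% and *Fpr2* in 14.1% and 1.69%. Before thinning the *Clec4e* shares were 66.7% and 13.4%. More macrophage-like cells had these transcripts in LIP, at equal numbers of UMIs per cell.

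Single cells carried several receptor transcripts at once. Among 1000 UMIs, LIP neutrophil-like cells had a median of 4 of the 9 genes and control ones 3, and 85.1% and 70.6% had 3 or more. In macrophage-like cells the medians were 2 and 0, 34.1% and 1.69% had 3 or more, and 28.2% and 76.3% had none. Without thinning, *Clec4d* and *Clec4e* were found together in 299 of 360 LIP neutrophil-like cells, with *Clec4d* alone in 17 and *Clec4e* alone in 29, and together in 44 of 51 control cells. Of the 49 LIP neutrophil-like cells with *Tlr4*, 47 also had *Cd14*, and of the 239 with *Tlr2*, 216 had it. In control these were 5 of 9 and 32 of 45. Of all neutrophil-like cells, 309 of 360 in LIP and 36 of 51 in control had *Cd14*. *Fpr1* and *Fpr2* were found together in 146 LIP and 29 control neutrophil-like cells. Joint counts without thinning rise with depth and with how common each gene is, so no link between genes is read from them.

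**Figure D4:**
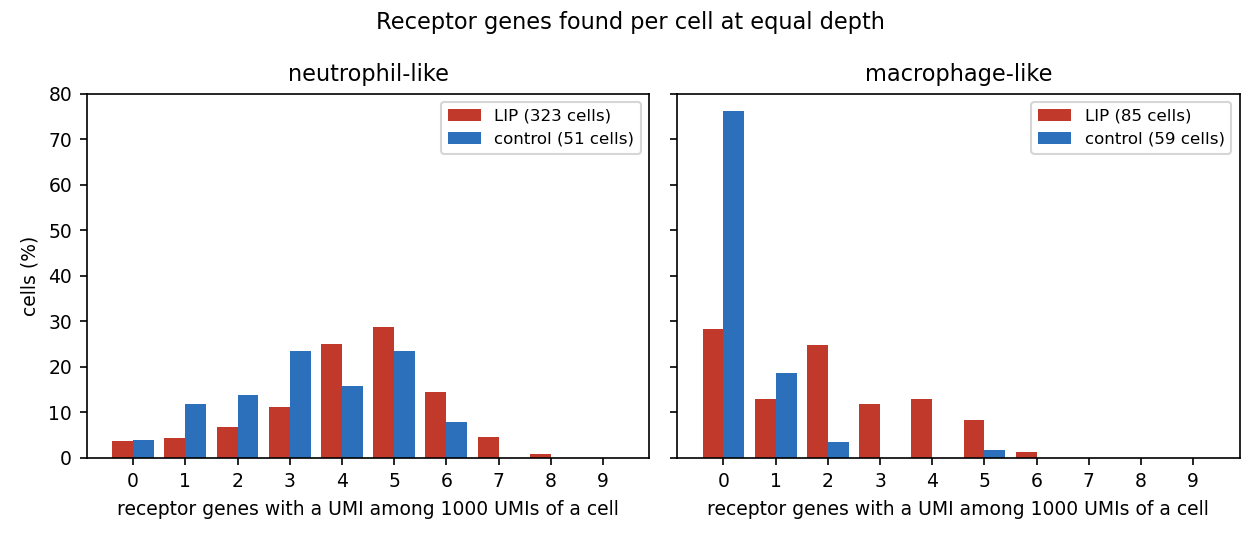
Percent of cells (vertical axis) by the number of the 9 receptor genes with a UMI among 1000 UMIs drawn from the cell (horizontal axis), in neutrophil-like cells (left) and macrophage-like cells (right) of the LIP and control libraries. The control macrophage-like cells sit mostly at 0 (76.3%), and the LIP neutrophil-like cells centre on 4 and 5 genes.

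The levels also varied from cell to cell within a class. *Cd14* reached 125 UMIs in 1 LIP neutrophil-like cell and 294 in 1 LIP macrophage-like cell, and the 36 and 9 cells with most *Cd14* UMIs held 35.9% and 45.3% of them in these classes. The per-cell *Cd14* level in LIP neutrophil-like cells had quartiles of 756 and 8203 CPM around a median of 3536 CPM, and in control 0 and 1652 CPM around 641 CPM. *Clec4d* was more even, with 25.9% of its UMIs in the 36 highest LIP neutrophil-like cells. In LIP macrophage-like cells *Fpr1* was the most uneven, with 87.8% of its UMIs in 9 of 90 cells.

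Outside the myeloid cells *Tlr2*, *Tlr4* and *Myd88* were found in tissue cells of both libraries. For each tissue class the level that carried-over neutrophil RNA would give was read from the carrier genes, which stood at 0.274% of their neutrophil-like level in LIP and 0.0828% in control over all stromal and epithelial cells. Carry-over of macrophage RNA is not given here, so the carried-over levels in tissue cells cover neutrophil RNA only. *Tlr2* was at 29.7 CPM (44 UMIs) in LIP and 21.5 CPM (29 UMIs) in control fibroblast-like cells, above the carried-over levels of 1.12 and 0.411 CPM. In fibroblast-like cells without a UMI of *Ptprc*, *Tyrobp* or *Fcer1g*, which immune cells express, *Tlr2* remained at 26.0 and 22.3 CPM. Its log2 ratio in this class was 0.46 (-0.24 to 1.19), and the class was mostly *Ibsp*-led in LIP (65.6%) and *Clec3b*-led in control (66.1%). Within these sub-clusters the log2 ratio of *Tlr2* was 0.86 (-0.04 to 1.76) in *Clec3b*-led and 0.85 (-0.59 to 2.60) in *Ibsp*-led cells. Both intervals held 0. The *Ibsp*-led cells had 7 markers of the fibroblast list and 6 of the osteogenic list.

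*Tlr4* was found in the vessel wall. In vascular endothelial-like cells it was at 28.8 CPM (25 UMIs) in LIP and 14.5 CPM (5 UMIs) in control, a log2 ratio of 0.99 (-0.42 to 2.73). In mural-like cells it was at 23.4 CPM (15 UMIs) and 10.2 CPM (6 UMIs), 1.21 (-0.24 to 2.86), and in fibroblast-like cells at 9.46 CPM (14 UMIs) and 17.8 CPM (24 UMIs), -0.91 (-1.98 to 0.10). All 3 intervals held 0, and the level carried over from neutrophil RNA was at most 0.110 CPM in these classes. Within the *Clec3b*-led and *Ibsp*-led fibroblast-like cells the log2 ratios of *Tlr4* were -0.46 (-1.95 to 0.86) and -0.81 (-2.68 to 1.19). Its partner genes *Ly96*, which encodes MD-2, and *Lbp*, which encodes the lipopolysaccharide-binding protein, were at 64.5 and 31.9 CPM and at 80.6 and 78.2 CPM in LIP and control vascular endothelial-like cells.

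*Myd88* was at 68.8 CPM in LIP and 67.7 CPM in control mural-like cells, a log2 ratio of 0.02 (-0.63 to 0.68). It was at 44.6 and 33.4 CPM in fibroblast-like, 40.3 and 20.3 CPM in vascular endothelial-like and 16.8 and 14.6 CPM in epithelial-like cells. T-like cells had it at 43.7 and 37.0 CPM and control B-like cells at 27.4 CPM. The adaptor was thus found in every class with at least 20 cells in both libraries, on 1 UMI in the 20 LIP B-like cells.

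*Cd14* was also found in LIP endothelium. Vascular endothelial-like cells had 46 *Cd14* UMIs in LIP, 53.0 CPM (38.8–70.7), and 3 in control, 8.69 CPM (1.79–25.4), a log2 ratio of 2.61 (0.97 to 4.94). These sums were under the minimum of 50 UMIs used for counting genes, and 1 LIP cell held 16 of the 46 UMIs. The carried-over level was 6.06 CPM in LIP, and in cells without immune UMIs *Cd14* was at 40.3 and 6.73 CPM. In LIP fibroblast-like cells *Cd14* was at 15.5 CPM beside a carried-over level of 9.47 CPM, and in Schwann-like cells at 29.5 CPM beside 34.2 CPM. The 16 control secretory-like cells had 29 *Cd14* UMIs, in 10 cells, and the 11 LIP ones had 8.

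In epithelial-like cells *Cd14*, *Clec4d* and *Clec4e* were higher in LIP, 3 of the 4 receptor genes with enough UMIs, where 3.35% of 9956 genes were, but *Clec4d* and *Clec4e* reached the minimum only through the LIP library. *Cd14* was at 26.2 and 7.07 CPM, 3.71-fold (2.57–5.39), *Clec4d* at 15.4 and 1.09 CPM on 44 and 8 UMIs, and *Clec4e* at 19.6 and 2.31 CPM on 56 and 17 UMIs. Carried-over neutrophil RNA would give 10.9, 4.82 and 7.21 CPM in LIP. Of the 56 LIP *Clec4e* UMIs, 10 lay in the 52 of 94 cells without immune UMIs, where *Cd14*, *Clec4d* and *Clec4e* were at 14.1, 5.65 and 7.06 CPM. The *Hist1h2ap*-led epithelial-like sub-cluster (24 LIP cells) held 50 of the 75 *Cd14*, 35 of the 44 *Clec4d* and 44 of the 56 *Clec4e* UMIs, and its carrier genes were at 0.514% of the neutrophil-like level against 0.101% to 0.176% in the other epithelial-like sub-clusters. The part of these neutrophil transcripts in the epithelial values was not tested.

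**Figure D5:**
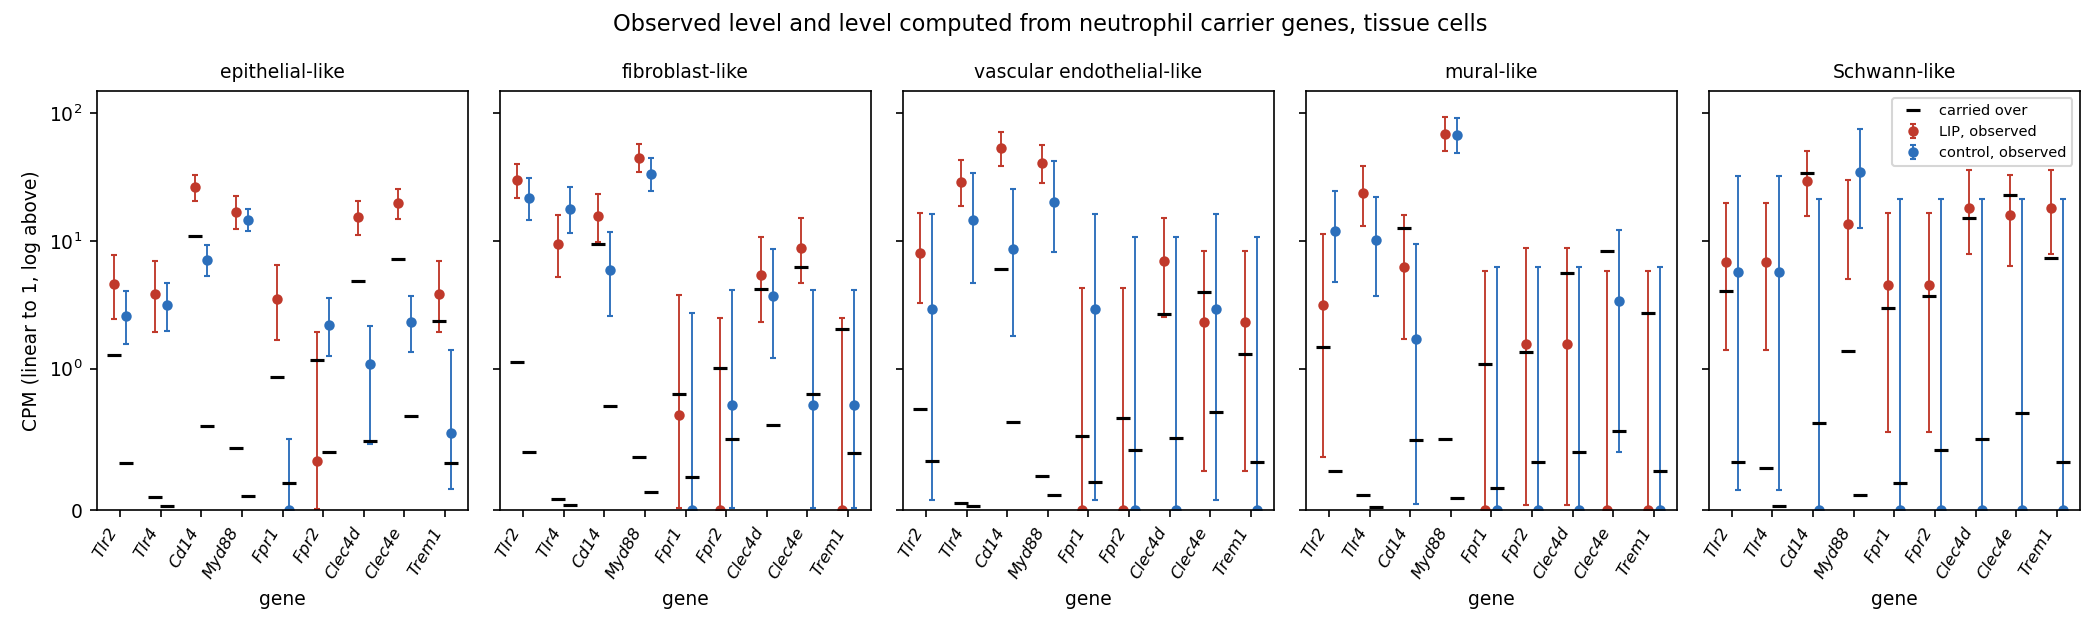
Observed CPM of 9 receptor genes in 5 tissue classes (panels) of the LIP library (red) and the control library (blue), with exact 95% Poisson intervals, and the level that carried-over neutrophil RNA would give (black dashes), on an axis that is linear to 1 CPM and logarithmic above. *Myd88* and *Tlr4* lie far above the dashes in mural-like and vascular endothelial-like cells, whereas LIP *Clec4d* and *Clec4e* lie near them in fibroblast-like and Schwann-like cells.

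The levels were compared over the 18 groups formed by 9 classes and 2 libraries, as a description, since these groups share libraries and the pool of free RNA. *Clec4d* and *Clec4e* were the closest match of each other among 11789 genes, at a Pearson correlation of 0.988 of log2(CPM + 10). *Fpr1* was closest to *Cd300ld* (0.994), *Trem1* (0.990) and *C5ar1* (0.989), and *Fpr2* to *Fcgr4* (0.995), *Tarm1* (0.992) and *Hk3* (0.990). *Trem1* was closest to *Cd300lf* (0.991), *Fpr1* and *Treml4* (0.988), and *Tlr2* to *Gm9733* (0.962), *Igsf6* (0.955) and *Clec5a* (0.952). *Cd14* was closest to *Nlrp3* (0.974), *Il1b* (0.969) and *Ccl3* (0.967), an inflammasome sensor, a cytokine and a chemokine. *Clec4d* and *Clec4e* had *C5ar1* and *Cd80* as their next matches. *Myd88* had no match above 0.907, reached with *Snx18* and *Nfkbiz* and followed by *Ptp4a1* (0.906). *Tlr4* was closest to *Cdc42ep2* (0.942), *Cpne3* (0.884) and *Rnf11* (0.875), and its correlation with the other 8 receptor genes lay between 0.486 with *Clec4e* and 0.672 with *Myd88*.

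Other genes of the same pathways were taken from 7 lists with 70 genes in all. In neutrophil-like cells 28 of them had at least 50 UMIs, of which 9 were 2-fold or more higher in LIP and 0 as far lower, beside 12.0% and 3.11% of all 3180 genes. The minimum was set on the sum of both libraries, and all of the higher genes but *Nlrp3* had under 50 control UMIs. Those genes passed it only through the library where they were high, so nothing is read from this count beyond the genes' own values. These values are over the whole class, and ratios within the sub-clusters are not given here. *Nlrp3* was among the 10 leading genes of the *Acod1*-led cells, which made up 73.9% of the cells of the class in LIP and 47.1% in control. Their share of the class UMIs, by which they weigh in these levels, is not given here. The part of this change of mix in the pathway ratios was not tested. *Nlrp3*, the sensor of the inflammasome, was at 1434 and 241 CPM, a log2 ratio of 2.57 (2.29 to 2.87), and *Casp4*, which binds lipopolysaccharide in the cytosol, at 340 and 109 CPM, 1.64 (1.21 to 2.11). *Tlr6*, the partner of TLR2, was at 73.0 and 18.5 CPM, 1.98 (0.95 to 3.22), and *Clec4n*, the receptor Dectin-2, at 188 and 57.9 CPM, 1.70 (1.11 to 2.35). The other 5 were *Malt1* (1.98), *Nod1* (1.56), *Irak3* (1.24), *Irak2* (1.09) and *Treml4* (1.05). The shared signalling chains of the C-type lectins and TREM-1 moved less, with *Fcer1g* at 2649 and 2028 CPM, *Tyrobp* at 3828 and 3007 CPM and *Syk* at 351 and 232 CPM. *Anxa1*, a ligand of the formyl peptide receptors, was at 1908 and 3271 CPM, a log2 ratio of -0.78 (-0.87 to -0.69), and *Pglyrp1*, which binds peptidoglycan, had -0.89.

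In macrophage-like cells 37 of the 70 genes had enough UMIs, of which 11 were 2-fold or more higher in LIP and 2 as far lower, beside 7.85% and 7.16% of all 5430 genes. The lower count was near that of all genes. All of the higher genes but *Malt1* and *Nlrp3* had under 50 control UMIs and passed the minimum only through the LIP library. Nothing is therefore read from the higher count beyond the genes' own values, which are over the whole class. *Irak3*, an inhibitor of the Toll-like signal, had 90 and 3 UMIs, a log2 ratio of 3.81 (2.21 to 6.11), and *Clec4n* was at 391 and 46.7 CPM, 3.07 (2.57 to 3.61). *Trem2* was at 171 and 35.7 CPM, 2.26 (1.68 to 2.90), and *Clec5a* at 97.8 and 24.7 CPM, 1.99 (1.28 to 2.78). The other 7 were *Trem3* (1.76), *Cd36* (1.74), *Tlr13* (1.46), *Malt1* (1.12), *Ifih1* (1.07), *Naip2* (1.03) and *Nlrp3* (286 and 143 CPM). The 2 lower genes were *Clec4b1*, with a log2 ratio of -1.34 (-2.06 to -0.64), and *Ly86*, which encodes MD-1, with -1.03 (-1.28 to -0.77).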

How the data were processed

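Raw UMI counts per gene and barcode, as the authors deposited them, were used for both libraries; the authors' alignment used Cell Ranger and the mm10 genome (software version 3.1.0 in the file headers). Cells with 200 to 7500 genes, at most 60000 UMIs and at most 10% mitochondrial UMIs were kept, following the study's methods. Counts were log-normalized, integrated and clustered in Seurat 5.3.0 (R 4.3.3) with 2000 variable features without the receptor and pathway genes, 30 dimensions and a resolution of 0.1, and each cluster was clustered again at 0.2. A sub-cluster was named from 3 or more markers of a class found in 25% of its cells, which named 22 of 23. Scrublet (scanpy 1.11.5) marked 1 LIP and 4 control cells as doublets, under its working range, and they were kept. UMIs were summed per class and library in Python 3.11.15 with numpy 2.4.6, scipy 1.17.1 and pandas 2.3.3, and plots used matplotlib 3.10.9. Intervals are exact Poisson, Clopper-Pearson or conditional binomial ones at 95%, and a sum of 0 was set to 3 counts per group. Ratios were called at 2-fold among genes with 50 UMIs. The scripts were tested on simulated data. The named genes are all listed receptor genes, their 3 nearest genes by correlation, and pathway genes beyond 2-fold or among the 3 highest of their list in the class described. The genes, lists and markers were chosen with earlier results of these data known. Alternatives covered features, resolution, dimensions, mitochondrial limit, doublets, cell weights, scaling, minimum, threshold and thinning.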

Additional observations from a re-analysis of the deposited data

Results flagged for a closer look

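*Tlr2* moved in opposite directions in the myeloid sub-clusters. Its log2 ratio, LIP over control, was -0.64 in the *Acod1*-led neutrophil-like cells, but 2.88 in the *Saa3*-led and 1.42 in the *Cd209a*-led macrophage-like cells, and with 1 library per condition the difference was not tested.

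Barcodes outside the filters, 276 in LIP and 286 in control, also held receptor transcripts. *Tlr2* was at 14.1 CPM in LIP against 2.94 CPM in control, *Cd14* at 36.5 against 11.7 CPM, *Clec4d* at 11.7 against 3.59 CPM and *Clec4e* at 17.4 against 3.26 CPM, all 4 higher in LIP. *Fpr2* went the other way, at 1.09 CPM (0.296–2.79) in LIP and 7.5 CPM (4.76–11.3) in control. The intervals overlapped for *Fpr1* (0.816 and 1.63 CPM), *Tlr4* (3.26 and 3.59 CPM), *Trem1* (5.44 and 1.30 CPM) and *Myd88* (20.9 and 15.7 CPM). These barcodes were not split by class, so a difference in level cannot be told apart from a difference in cell mix. They enter no comparison above, and these differences were not tested either.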

How the results depend on the processing

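No paired analysis was possible because each condition has 1 library, and no replicate could be left out. Over the alternatives set out first, counts and shares stayed in 120 cases and moved in 10. Levels stayed in 307 and moved in 39, and log2 ratios stayed in 272, moved in 42 and reversed in 1. A count stayed if it was close to its main value, and a share, level or ratio if it lay inside its main interval. The mean of per-cell CPM changed most, with 38 values moved, 1 reversed and 43 the same. The myeloid share of the receptor UMIs (96.9% in LIP, 80.2% in control) was 96.2% at a resolution of 0.3, 96.1% with 15 dimensions, and 96.3% in LIP at a mitochondrial limit of 20%. At a limit of 5% it was 74.4% in LIP and 65.6% in control, since no sub-cluster was then named macrophage-like, and this setting gave no macrophage-like values. The *Tlr2* log2 ratio of neutrophil-like cells (0.29) was -0.17 as a mean of per-cell CPM and -0.64 within the *Acod1*-led cells, and that of *Trem1* was 0.65 as a mean of per-cell CPM. Without a UMI minimum, 5 receptor genes were higher and 1 lower in epithelial-like cells, and the share of all genes without that minimum is not given here. After thinning to 2000 UMIs, 91.7% of LIP and 86.0% of control neutrophil-like cells and 51.2% of LIP macrophage-like cells had 3 or more receptor genes. Alternatives chosen after seeing the data left 4 counted genes higher in macrophage-like cells without carrier UMIs, since the other 4 fell under 50 UMIs there with folds still above 2. Alternatives of this kind left 1 higher in *Acod1*-led and 0 in *Ltf*-led cells. They gave log2 ratios of -1.55 for *Fpr1* and -0.18 for *Fpr2* in *Cd209a*-led cells, both on few UMIs and with intervals that held 0. No share of all genes stands beside these counts, so nothing is read from them beyond the genes' own values. Where no cause is given, it was not tested. Rare transcripts such as *Tlr4* are limited by depth.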
